A study of Mus musculus with 6 samples.

Results

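The 7 genes described here encode the NKR-P1 receptors Klrb1a, Klrb1b, Klrb1c and Klrb1f, the Clec2 ligands Clec2d and Clec2i, and the inhibitory receptor Klrg1 of natural killer (NK) cells. They were taken by symbol from the deposited gene expression table, and all 7 were found among its 55414 genes. Messenger RNA was sequenced in liver NK cells of wild-type (WT) mice in 6 libraries collected on day 3, with 3 libraries from mice given metformin at 200 mg per kg for 3 days and 3 from control mice given phosphate-buffered saline (PBS). Metformin is a glucose-lowering drug, and the title of the series concerns antitumour activity of these cells through the death ligand TRAIL. The strain, sex and age of the mice, how the NK cells were isolated and whether any of the 7 gene products served in a sort are not given in the sources used here. Whether each library is a mouse of its own is not labelled. The p-values therefore speak of the spread among these 6 libraries, part of which may be technical. The libraries hold 22152167 to 30161214 estimated reads.

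NKR-P1 receptors are C-type lectin-like proteins that span the membrane of NK cells and of their liver-resident relatives, type 1 innate lymphoid cells (ILC1). Klrb1c encodes NK1.1, an activating receptor that signals through the Fc receptor gamma chain and is the classical surface marker of mouse NK cells. Klrb1a and Klrb1f encode the stimulatory receptors NKR-P1A and NKR-P1F. Klrb1b encodes NKR-P1B, an inhibitory receptor that recruits the phosphatase SHP-1 when it binds Clr-b, the product of Clec2d, on healthy blood cells. Clec2i encodes Clr-g, a ligand of NKR-P1F. Klrg1 encodes an inhibitory receptor of mature NK cells and effector T cells that binds cadherins.

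All the genes but Klrg1 lie in 1 cluster of receptor and ligand genes on mouse chromosome 6, and Klrg1 lies apart from them on the same chromosome. The positions that follow are those of the deposited table. In it Klrb1a (ENSMUSG00000030361.17) spans 128586190 to 128600496 on the minus strand, Klrb1c (ENSMUSG00000030325.17) 128755448 to 128766178 and Klrb1b (ENSMUSG00000079298.10) 128790669 to 128803294, also on the minus strand. On the plus strand follow Clec2i (ENSMUSG00000030365.12) at 128864551 to 128875130, Klrb1f (ENSMUSG00000030154.11) at 129022864 to 129034427 and Clec2d (ENSMUSG00000030157.6) at 129157578 to 129163497. Klrg1 (ENSMUSG00000030114.9) spans 122247555 to 122259841 on the minus strand. The submitters' processing notes name both GRCm39 and mm10 without saying what each was used for, so no build is attached to these positions.

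The coding sequences are shown for a motif known from inhibitory receptors and for how alike the copies are. An immunoreceptor tyrosine-based inhibitory motif (ITIM) is encoded by 6 codons: isoleucine, valine, leucine or serine, any codon, tyrosine, any pair of codons, and isoleucine, valine or leucine. The first 60 codons of each receptor were searched for it. The lines give 30 codons (90 bases, 5′ to 3′) of the GENCODE M21 transcript numbered 201 of each gene, in lower case, with the 6 codons around a tyrosine codon in capitals. They begin at codon 1 in Klrb1b and Klrg1, codon 47 in Klrb1c, codon 5 in Klrb1a and codon 10 in Klrb1f. All of these genes lie on chromosome 6.
Klrb1b: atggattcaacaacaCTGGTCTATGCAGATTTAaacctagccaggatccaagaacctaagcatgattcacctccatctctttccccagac
Klrg1: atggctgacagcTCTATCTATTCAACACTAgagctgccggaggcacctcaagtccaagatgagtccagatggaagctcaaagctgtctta
Klrb1c: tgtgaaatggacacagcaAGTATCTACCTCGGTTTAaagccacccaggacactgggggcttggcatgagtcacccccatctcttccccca
Klrb1a: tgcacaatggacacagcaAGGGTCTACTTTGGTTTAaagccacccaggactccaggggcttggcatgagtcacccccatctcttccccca
Klrb1f: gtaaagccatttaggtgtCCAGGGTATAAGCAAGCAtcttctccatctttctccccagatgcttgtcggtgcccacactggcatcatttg
The pattern was present in 3 of the 5 receptors, Klrb1b, Klrg1 and Klrb1c, and was not found in Klrb1a or Klrb1f. Klrg1 had 2 matches in the codons searched. The first of them is in capitals, and the other lies past the codons shown. Whether that other match lies in the part of the protein inside the cell was not tested. A match describes the letters only, since NK1.1 is known as an activating receptor. All 4 Klrb1 genes, and not Klrg1, also encoded a cysteine, any residue, cysteine and proline within the first 90 codons, the motif by which NKR-P1 receptors are known to bind the kinase Lck. Klrb1a and Klrb1c matched at 92.5% of their aligned coding bases, Klrb1b and Klrb1c at 86.7%, Klrb1a and Klrb1b at 85.2%, and Klrb1f matched the other Klrb1 genes at 71.6% to 74.5%. Klrg1, which lies outside the cluster, matched the 4 Klrb1 genes at 64.1% to 72.2%, a range that holds the lowest of the Klrb1f values. The ligands Clec2d and Clec2i matched each other at 86.5%.

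This likeness bears on how firmly the reads of each gene can be assigned. Of the 50-base stretches in all transcripts of a gene in GENCODE M21, 27.2% in Klrb1b, 17.0% in Klrb1c, 9.92% in Klrb1a, 4.10% in Clec2i and 1.98% in Clec2d occurred in a transcript of another gene, against 0% in Klrb1f and Klrg1. For Klrb1b most of these (25.5% of its stretches) were shared with Gm44511, a gene model on the same strand that overlaps both Klrb1b and Klrb1c. Klrb1c too shared more with Gm44511 than with any other gene (12.4% of its stretches). The deposited counts are estimated counts, which need not be whole, and for Klrb1b and Klrb1c they were whole (to within 1e-09 of a read) in 0 of 6 libraries, against 6 of 6 for Klrb1f, Clec2d and Klrg1 and 5 of 6 for Klrb1a and Clec2i. No source used here says how the authors divided shared reads, so the split between Klrb1a, Klrb1b, Klrb1c and Gm44511 is uncertain.

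Levels are compared between genes in transcripts per 1000000 (TPM), which corrects for transcript length. Klrb1c was the highest, at 1535 ± 120 TPM with metformin and 1426 ± 90.1 TPM with PBS (SD, n = 3 each), above 99.6% of the 15527 genes that passed the filter on low counts. In every library its TPM was 4.42 to 5.65 times that of Klrb1a, the next in order. Klrb1a averaged 323 ± 46.5 TPM with metformin and 276 ± 14.3 TPM with PBS. Klrb1f averaged 281 ± 29.1 TPM with metformin and 262 ± 6.76 TPM with PBS. Klrg1 averaged 195 ± 15.9 TPM with metformin and 270.4 ± 21.1 TPM with PBS, and Klrb1b 236 ± 28.4 TPM with metformin and 187 ± 15.99 TPM with PBS. These 4 genes lay within the range of 169 to 359 TPM, and neighbours among them overlapped in their ranges over the 6 libraries. Klrg1 was above Klrb1b in 4 of 6 libraries, with a ratio of Klrg1 to Klrb1b from 0.690 to 1.65. Clec2i followed at 78.8 ± 6.42 TPM with metformin and 83.6 ± 8.20 TPM with PBS, and the lowest Klrb1b library was above the highest Clec2i library. Clec2d was the lowest, at 7.41 ± 2.17 TPM with metformin and 4.05 ± 0.803 TPM with PBS, and Clec2i had 7.37 to 24.0 times its TPM in the 6 libraries.

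**Figure D1:**
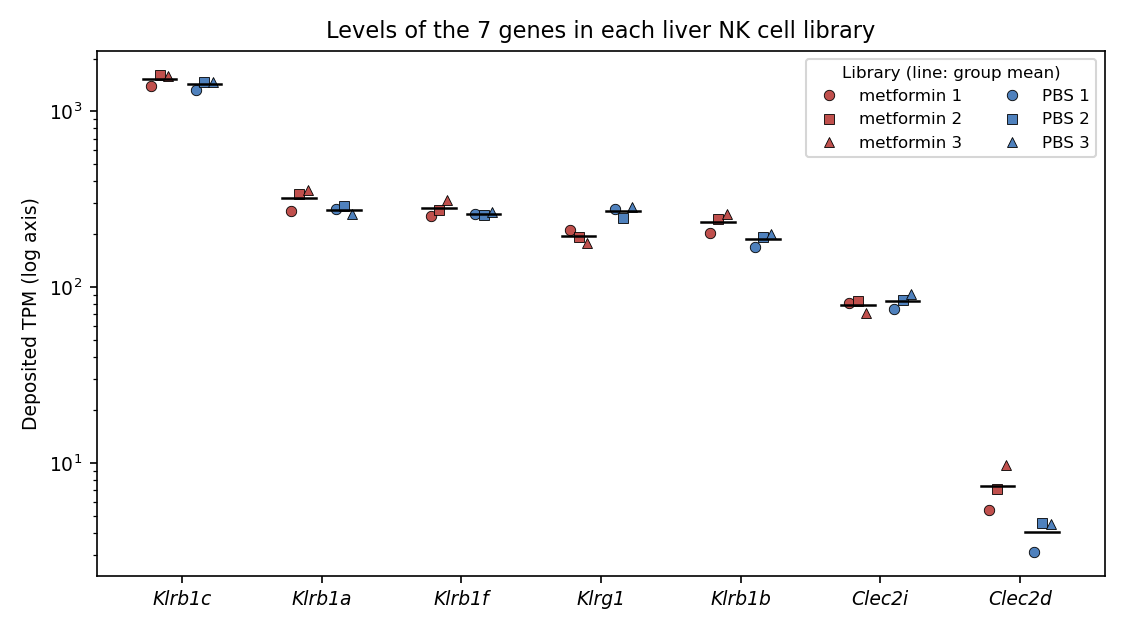
Deposited TPM (log axis) of the 7 genes in the 3 metformin and 3 PBS libraries, in order of mean level, with a line at each group mean. Klrb1c stands alone at 1322 to 1620.3 TPM, 4 receptors lie together between 169 and 359 TPM, and the ligands Clec2i and Clec2d are below them.

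Along the cluster, transcribed genes and nearly silent ones lie mixed, and Klrb1c, Klrb1b and Clec2i are neighbours with no other gene of the family between them. The deposited table lists 14 Klrb1 and Clec2 genes within 722.6 kb there, 6 of which are described here. Between Klrb1a and Klrb1c, the receptor gene Klrb1 averaged 17.4 TPM with metformin and 20.7 TPM with PBS, and the ligand gene Clec2h 0.588 TPM with metformin and 0.463 TPM with PBS. Between Clec2i and Klrb1f, Clec2g averaged 0.142 TPM with metformin and 0.324 TPM with PBS. Between Klrb1f and Clec2d, the pseudogene Klrb1-ps1 averaged 3.11 TPM with metformin and 2.47 TPM with PBS. Clec2e had reads in metformin library 3 alone (4 counts), Clec2f in PBS library 1 alone (3 counts) and Clec2m in metformin library 2 alone (2 counts). Of 11 further symbols of the family on a list of relatives 9 were found and 2 passed the filter on low counts. These were Klrb1, with 6.68 ± 1.08 counts per 1000000 reads (CPM) with metformin and 6.88 ± 1.07 CPM with PBS (log2 fold change -0.042, SE 0.23, and -0.17 to 0.081 with 1 library left out), and Clec2l, with 1.18 ± 0.607 CPM with metformin and 1.40 ± 0.261 CPM with PBS (log2 fold change -0.24, SE 0.47). Neither was called by edgeR (adjusted p = 0.961 for Klrb1 and 0.871 for Clec2l).

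**Figure D2:**
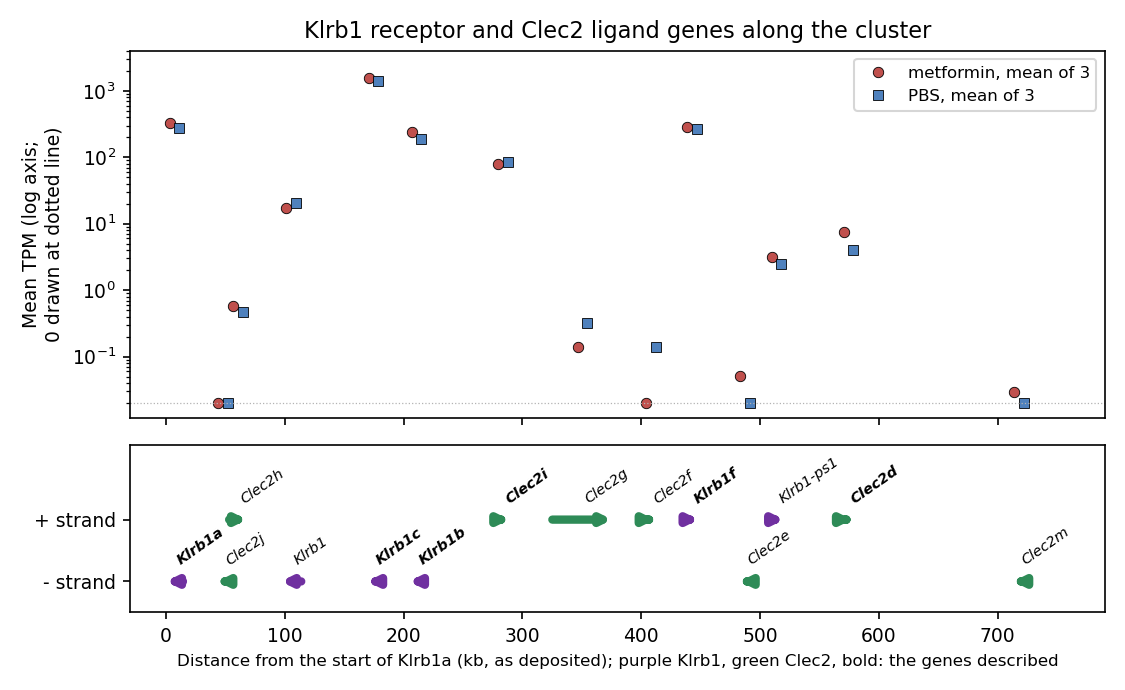
Mean TPM (log axis, n = 3 libraries a group) of the 14 Klrb1 and Clec2 genes of the cluster, above a map of their position and strand, with distance in kb from the start of Klrb1a. Klrb1a, Klrb1c, Klrb1b, Clec2i and Klrb1f are at 78.8 TPM or more in both groups, and the genes between them are at or below 20.7 TPM; a mean of 0 is drawn on the dotted line.

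Klrb1a and Klrb1c, the pair most alike in coding sequence, were also the pair most alike upstream of their starts, although their levels lie far apart. Over the 250 bases before the start that RefSeq gives (GRCm38.p6), they matched at 89.5% of 210 aligned bases, against 50.2% to 70.9% for the other pairs among the 6 members with an entry. The last 150 of these bases are printed for both, at chr6:128622935-128623084 for Klrb1a and chr6:128788642-128788791 for Klrb1c, both on the minus strand, with the letters TGTGGT, the core bound by RUNX factors, in capitals.
Klrb1a: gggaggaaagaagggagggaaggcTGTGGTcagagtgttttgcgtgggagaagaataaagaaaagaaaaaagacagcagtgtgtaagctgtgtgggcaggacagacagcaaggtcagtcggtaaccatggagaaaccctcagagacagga
Klrb1c: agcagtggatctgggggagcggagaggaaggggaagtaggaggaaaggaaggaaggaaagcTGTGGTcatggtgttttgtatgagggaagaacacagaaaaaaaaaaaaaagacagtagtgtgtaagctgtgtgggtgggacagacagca
TGTGGT or its reverse complement was found once in each of these upstream stretches of 250 bases, at 126 bases before the start in Klrb1a and 89 in Klrb1c, and in none of those of Klrb1b, Klrb1f, Clec2d and Clec2i. Among 27025 genes with an entry 14.2% hold it in that stretch. The T-box core GGTGTGA, on either strand, was found in none of the 6 members and in 3.31% of all entries.

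The comparison asked how metformin changed these genes in liver NK cells. No member passed in either direction: of 15527 genes tested, edgeR's quasi-likelihood test called 0 (0%) at an adjusted p of 0.05, the smallest adjusted p among the 7 genes being 0.340. DESeq2 called 299 of 15527 (1.93%), and 0 of the 7 members. Without adjustment 1610 genes (10.4%) had a p under 0.05 by edgeR, 4 of them members: Klrb1a, Klrb1b and Clec2d higher with metformin (5.29% of all genes) and Klrg1 lower (5.08%). The median log2 fold change of the 7 was 0.24, against 0.0053 for all genes tested. On the CPM scale the groups did not overlap in 5 of the 7 members, with metformin above in 4 and below in 1, against 19.1% of all genes tested (9.49% above and 9.63% below). On the deposited TPM they did not overlap in 3 of the 7, with Klrb1b and Clec2d above and Klrg1 below, against 20.1% of all genes (4.82% above and 15.2% below). By CPM without metformin 3 they did not overlap in 5 of the 7, against 29.7% of all genes (15.1% above and 14.6% below). The members were chosen with earlier results of these data known, so these counts are descriptions.

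Klrb1b, which encodes an inhibitory NKR-P1 receptor, had 265, 302 and 368 CPM in metformin libraries 1, 2 and 3, against 213, 236 and 232 CPM in PBS libraries 1, 2 and 3. Every metformin library was above every PBS library, and metformin 3 was the highest. Its means were 312 ± 52.5 CPM with metformin and 227 ± 11.9 CPM with PBS (SD, n = 3 each), with a log2 difference of 0.46 (SE 0.13; 95% interval 0.15 to 0.76; edgeR adjusted p = 0.340). Over the settings tried the adjusted p lay between 0.0594 and 0.717. Gm44511, the overlapping gene model that shares sequence with it, averaged 27.9 ± 0.931 CPM with metformin and 19.1 ± 1.43 CPM with PBS, with a log2 difference of 0.55 (SE 0.12; edgeR adjusted p = 0.257). That gene was picked for its overlap after its values were seen. Whether reads moved between it and Klrb1b was not tested.

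Clec2d, the ligand of NKR-P1B, showed the widest difference of the 7 and the fewest reads. It had 89, 119 and 172 estimated reads in metformin libraries 1, 2 and 3, against 58, 73 and 88 in PBS libraries 1, 2 and 3, or 3.90, 4.96 and 7.54 CPM against 2.14, 3.00 and 2.90 CPM. The metformin libraries were all higher, and metformin 3 was well above metformin 1 and 2. The fitted log2 fold change was 1.03 (SE 0.33; 95% interval 0.28 to 1.78; edgeR adjusted p = 0.382). It was 0.72 without metformin 3 and 0.72 on log2(TPM + 1), where the added 1 narrows a difference at levels this low. Clr-b is known on most blood cells. The summed T cell markers given with the other cell types were higher in every metformin library than in any PBS library. Sums of the 7 genes more restricted to T cells and of B cell markers overlapped between the groups. Both were lowest among the metformin libraries in metformin 3, at 84.1 and 548 CPM. Macrophage and monocyte markers also overlapped and were highest in metformin 3, at 925 CPM. The part of any of these cells in Clec2d was not tested.

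Klrg1, the cadherin receptor of mature NK cells, went the other way. It had 192, 168 and 173 CPM in metformin libraries 1, 2 and 3, against 237, 205 and 233 CPM in PBS libraries 1, 2 and 3. No metformin library reached the lowest PBS library. The means were 178 ± 12.7 CPM with metformin and 225 ± 17.5 CPM with PBS, with a log2 difference of -0.34 (SE 0.10; 95% interval -0.57 to -0.10; edgeR adjusted p = 0.361). Over the settings tried the adjusted p lay between 0.0844 and 0.684. By CPM metformin 3 was not the extreme library here, and without it the log2 fold change was -0.33. On TPM metformin 3 was the lowest library, at 179, against 211 and 194 in metformin 1 and 2. Klrg1 shares no 50-base stretch with another gene, so its reads are not subject to the split that touches Klrb1b and Klrb1c. In bulk RNA fewer cells that carry a transcript and less of it per cell cannot be told apart.

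The 3 stimulatory receptors each averaged higher with metformin. Klrb1a had 189, 231 and 274 CPM in metformin libraries 1, 2 and 3, against 184, 183 and 162 CPM in PBS libraries 1, 2 and 3. Metformin 1 lay close to the PBS libraries, and on TPM, at 271, it lay between PBS 3 at 261 and PBS 1 at 278. Its log2 fold change was 0.39 (SE 0.14; 95% interval 0.063 to 0.72; edgeR adjusted p = 0.436), and 0.24 either without metformin 3 or with the trend of expression on gene length removed.

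Klrb1c, which encodes NK1.1, had 1909, 2115 and 2268 CPM in metformin libraries 1, 2 and 3, against 1719.7, 1887 and 1833 CPM in PBS libraries 1, 2 and 3. All metformin libraries were higher by CPM, though metformin 1 exceeded PBS 2 by little, and on TPM the groups overlapped. Its log2 fold change was 0.21 (SE 0.10; 95% interval -0.0099 to 0.43; edgeR adjusted p = 0.489). Klrb1f, which encodes a receptor of Clr-g, had 225, 248 and 309.6 CPM in metformin libraries 1, 2 and 3, against 228, 214 and 220.1 CPM in PBS libraries 1, 2 and 3. Metformin 1 was below PBS 1, so the groups overlapped. The log2 fold change of Klrb1f was 0.24 (SE 0.13; 95% interval -0.052 to 0.53; edgeR adjusted p = 0.539), and 0.093 without metformin 3.

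Clec2i, which encodes a ligand of NKR-P1F, had the smallest fitted log2 fold change of the 7 in size. Its values were 71.7, 74.0 and 72.1 CPM in metformin libraries 1, 2 and 3, against 67.0, 68.5 and 73.7 CPM in PBS libraries 1, 2 and 3. The groups overlapped, and the log2 fold change was 0.058 (SE 0.091; 95% interval -0.15 to 0.27; edgeR adjusted p = 0.838); on log2(TPM + 1) its sign turned, to -0.083. An antisense partner may limit this value: the span of BC035044 overlaps that of Clec2i on the opposite strand, with 952 to 1941 reads per library against 1637 to 2235 for Clec2i. No source used here says whether the authors counted by strand. Without strand, reads from any stretch where exons of both genes overlap could not be told apart. Whether their exons overlap was not tested. BC035044, named after its values were seen, averaged 50.4 ± 7.70 CPM with metformin and 64.0 ± 9.16 CPM with PBS (log2 fold change -0.34, SE 0.15; edgeR adjusted p = 0.482).

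**Figure D3:**
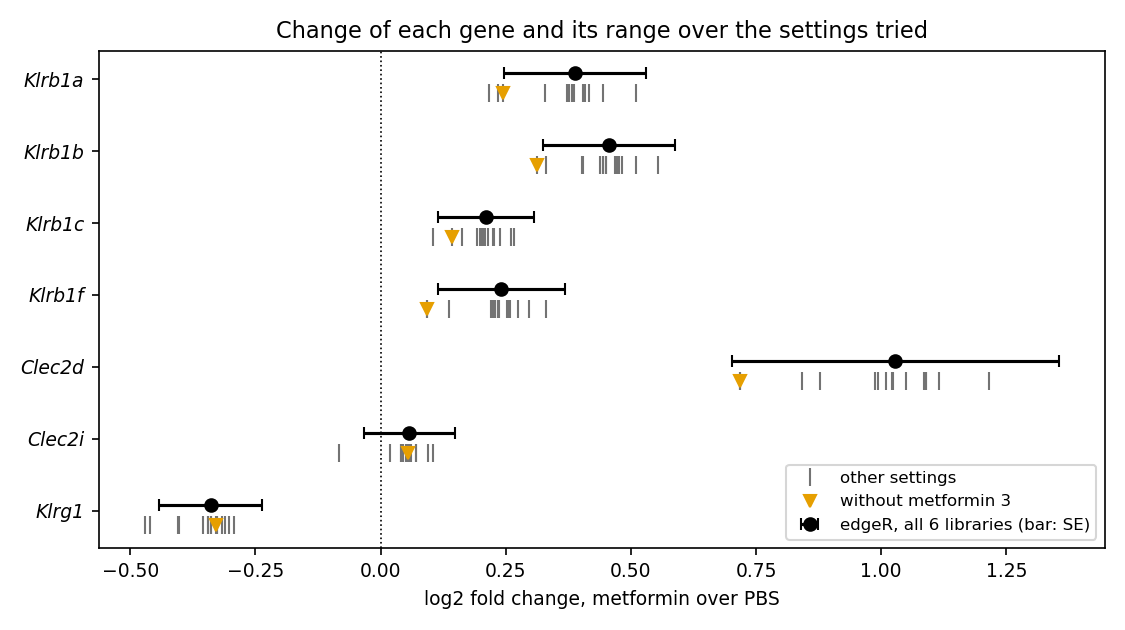
Log2 fold change of each gene, metformin over PBS, from edgeR with all 6 libraries (black points, bars show the SE), with ticks for the 16 other settings (15 for Clec2d) and a triangle for the fit without metformin 3. Klrg1 lies below 0 and Klrb1a, Klrb1b, Klrb1c, Klrb1f and Clec2d above 0 in every setting shown, while Clec2i crosses 0 on log2(TPM + 1).

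Since scaling moves all genes of a library together, the members were also set against each other within each library as 6 ratios of TPM. The ratio of Klrb1b to Klrb1c, inhibitory to activating receptor, was 0.147, 0.150 and 0.164 in metformin libraries 1, 2 and 3, against 0.128, 0.130 and 0.135 in PBS libraries 1, 2 and 3. Each metformin library had the larger ratio. The mean difference was 0.23 on the log2 scale (two-sided exact permutation p = 0.1; adjusted p = 0.2 over the 6 ratios). With 3 libraries a group 0.1 is the smallest p possible, so no ratio could pass 0.05. The members were chosen with earlier results of these data known, so the 6 ratios and their p-values are descriptions. The 2 genes share sequence, as given above. The ratio of Klrg1 to Klrb1c was 0.151, 0.120 and 0.113 with metformin, against 0.211, 0.167 and 0.194 with PBS. It was smaller in every metformin library, by -0.58 on the log2 scale (exact permutation p = 0.1, adjusted p = 0.2).

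The receptor NKR-P1B was also set against its ligand. Klrb1b to Clec2d was 37.3, 33.6 and 26.5 with metformin, against 52.5, 41.4 and 43.6 with PBS. Every metformin library had the smaller ratio, with a difference of -0.50 on the log2 scale (exact permutation p = 0.1, adjusted p = 0.2). Klrb1f to Clec2i, the other receptor and ligand pair, was 3.12, 3.30 and 4.36 with metformin, against 3.50, 3.02 and 2.95 with PBS, and the groups overlapped (difference 0.18, exact permutation p = 0.5, adjusted p = 0.6). Without metformin 3 that difference was 0.028. Klrb1a to Klrb1c (0.11, exact permutation p = 0.5, adjusted p = 0.6) and Klrb1f to Klrb1c (-0.013, exact permutation p = 0.7, adjusted p = 0.7) overlapped between groups as well.

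**Figure D4:**
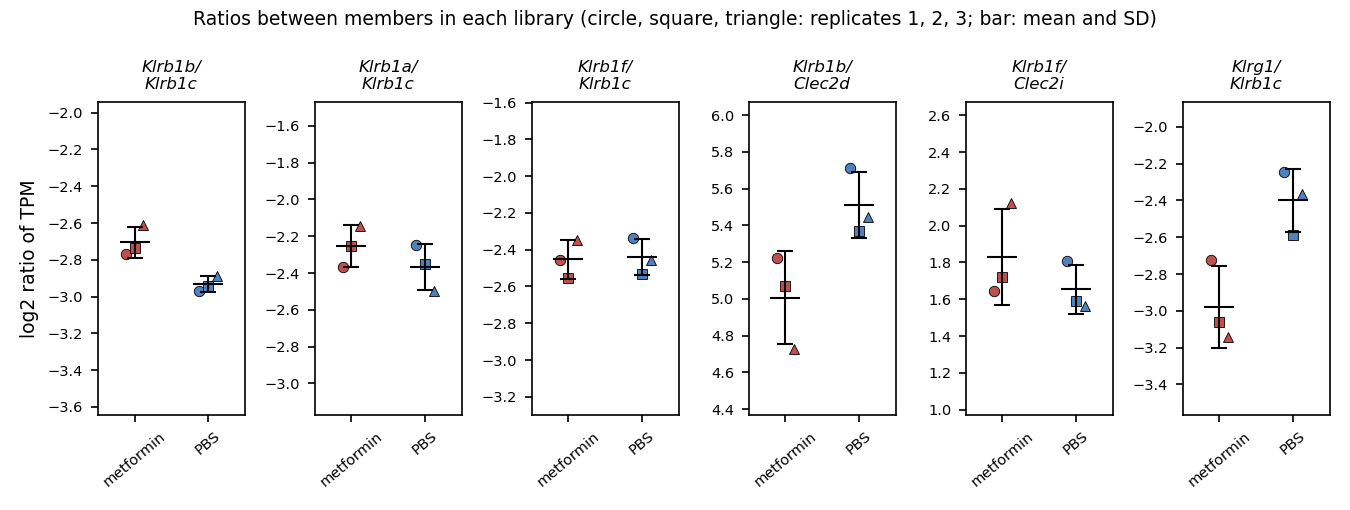
Log2 ratio of TPM for 6 pairs of genes in each library, metformin left of PBS, with the mean and SD of each group; each panel spans the same range on the log2 scale. The groups are apart for Klrb1b/Klrb1c, Klrb1b/Clec2d and Klrg1/Klrb1c and overlap for the other 3 pairs.

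Among the 4 Klrb1 receptors Klrb1c held the largest part of the summed TPM in every library, and Klrb1b a larger part in every metformin library than in any PBS library. Klrb1c held 64.7% ± 1.45 of their summed TPM with metformin and 66.2% ± 1.00 with PBS (SD, n = 3 each). Klrb1b held 9.62%, 9.81% and 10.3% in metformin libraries 1, 2 and 3, against 8.32%, 8.67% and 9.04% in PBS libraries 1, 2 and 3, a mean difference of 1.24 percentage points. Klrb1a held 13.6% ± 0.777 with metformin and 12.9% ± 0.946 with PBS, and Klrb1f 11.8% ± 0.652 with metformin and 12.2% ± 0.676 with PBS.

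The signalling partners of these receptors were all abundant enough to be tested, and none passed over all genes by edgeR. On the inhibitory side 0 of 6 genes passed in either direction, with a median log2 fold change of 0.050, and 1 was higher at an unadjusted p under 0.05 (5.29% of all genes tested were higher and 5.08% lower at that p). Ptpn6, which encodes SHP-1, averaged 504.1 ± 43.8 CPM with metformin and 478 ± 23.7 CPM with PBS, and Inpp5d, the lipid phosphatase SHIP-1 that KLRG1 is known to recruit, 394 ± 134 CPM with metformin and 433 ± 40.8 CPM with PBS. Inpp5d was low in metformin 3 alone, at 239 CPM against 468 and 474 CPM in metformin 1 and 2, and its log2 fold change was -0.14 with all libraries and 0.11 without metformin 3. Dok2, an adaptor that dampens receptor signalling, averaged 744 ± 31.1 CPM with metformin and 647 ± 29.3 CPM with PBS, and Csk, a kinase that restrains Lck, 176 ± 6.98 CPM with metformin and 173 ± 3.86 CPM with PBS. On the activating side 0 of 16 passed, with a median of -0.069, and at an unadjusted p under 0.05 there were 3 higher and 2 lower, beside the same shares of all genes (5.29% and 5.08%); without metformin 3 the median was 0.026. Fcer1g, the signalling chain of NK1.1, averaged 1262 ± 259 CPM with metformin and 972 ± 31.9 CPM with PBS (log2 fold change 0.38, SE 0.14; edgeR adjusted p = 0.452), and the log2 fold change was 0.19 without metformin 3, its highest library. Lck averaged 1411 ± 40.9 CPM with metformin and 1344 ± 101 CPM with PBS, and Pik3cd, a catalytic subunit of PI3 kinase, 712 ± 211 CPM with metformin and 821 ± 47.5 CPM with PBS. Pik3cd too was low in metformin 3 alone, with 474 CPM, and its log2 fold change was -0.20 with all libraries and 0.012 without that one. The kinase gene Fyn averaged 591 ± 68.97 CPM with metformin and 778 ± 4.12 CPM with PBS (log2 fold change -0.40, SE 0.11; edgeR adjusted p = 0.312).

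Transcripts of the cadherins that KLRG1 binds were few in these NK cell libraries. Cdh1, E-cadherin, averaged 22.4 ± 4.54 CPM with metformin and 18.6 ± 4.34 CPM with PBS (log2 fold change 0.27, SE 0.22; edgeR adjusted p = 0.679). Cdh2, N-cadherin, averaged 1.39 ± 0.161 CPM with metformin and 0.963 ± 0.507 CPM with PBS. Cdh4, R-cadherin, had 0, 1 and 9 counts in metformin libraries 1, 2 and 3 and 0 in each PBS library. Of these 3 genes 2 were tested and 0 passed.

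KLRG1 marks the mature stage of circulating NK cells, and 14 genes tied to NK cell maturation were read beside it, among them Cd27, Tcf7 and Kit, which are known from earlier stages. By edgeR 0 of 14 passed, with a median log2 fold change of -0.32, and at an unadjusted p under 0.05 there were 1 higher and 6 lower, beside 5.29% and 5.08% of all genes tested; without metformin 3 the median was -0.20, and without PBS 3 there were 1 higher and 2 lower. Itgam, the integrin CD11b of mature NK cells, averaged 477 ± 165 CPM with metformin and 743 ± 22.6 CPM with PBS (log2 fold change -0.64, SE 0.24; edgeR adjusted p = 0.443), and without metformin 3, its lowest library, the log2 fold change was -0.39. S1pr5, an exit receptor of mature NK cells, averaged 355 ± 46.7 CPM with metformin and 445 ± 15.2 CPM with PBS (log2 fold change -0.33, SE 0.11; edgeR adjusted p = 0.429). Gzmb, the protease granzyme B, was on the higher side, at 3345 ± 467 CPM with metformin and 2383 ± 366 CPM with PBS, and Tbx21, the transcription factor T-bet, averaged 829 ± 78.4 CPM with metformin and 914 ± 18.5 CPM with PBS (edgeR adjusted p = 0.353 for Gzmb and 0.637 for Tbx21). Genes of earlier stages were not all on 1 side. Kit, a growth factor receptor of precursors, had 50.3, 50.7 and 23.4 CPM in metformin libraries 1, 2 and 3, against 111, 76.8 and 74.2 CPM in PBS libraries 1, 2 and 3 (log2 fold change -1.07; edgeR adjusted p = 0.317). Tcf7, a transcription factor of early lymphocytes, was likewise lower in every metformin library (log2 fold change -0.39; edgeR adjusted p = 0.305), and Cd27 had a log2 fold change of 0.23 (edgeR adjusted p = 0.487). These 3 were named after their values were seen.

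Marker genes of the cells a liver NK preparation can hold were summed per library, and several sums moved with the groups. The 10 genes shared by NK cells and ILC1 summed to 20376 to 23173 CPM with metformin and 19305 to 20775 CPM with PBS, led by Gzma, Il2rb and Nkg7. Liver ILC1 markers summed to 2101 to 2254 CPM with metformin and 1391 to 1580.5 CPM with PBS, with 12 of 12 genes higher on average. Markers of circulating NK cells summed to 3409 to 4326 CPM with metformin and 5604 to 5742 CPM with PBS, with 0 of 12 higher. The sum of 13 T cell markers was 1362 to 1624 CPM with metformin and 816 to 959 CPM with PBS, led by Cd3g, Trbc1 and Trbc2, with 13 of 13 higher on average, while 7 genes more restricted to T cells gave 84.1 to 211 CPM with metformin and 61.5 to 129 CPM with PBS. Hepatocyte markers were highest in metformin 3, at 689 CPM, against 249 to 394.5 CPM in the other 5 libraries. Metformin 3 was also the library in which 5 of the 7 members, Klrb1a, Klrb1b, Klrb1c, Klrb1f and Clec2d, were highest. The share of all genes that were highest in that library was not computed, so this count cannot be read as a trait of the members. Dendritic cell markers, of which Itgax is the most abundant, gave 468 to 606 CPM with metformin and 609 to 649 CPM with PBS, with 5 of 10 genes higher on average and a mean difference of 0.0013 in log2(CPM + 1) over the list. For these 14 sums the two-sided exact permutation p was 0.1, the smallest possible, in ILC1, circulating NK, T cell and dendritic cell markers, or 0.35 adjusted over the 14, and 0.2 to 0.9 in the others. Other lists also leaned higher with metformin: 8 of 8 B cell, 14 of 15 hepatocyte and 10 of 12 macrophage and monocyte genes. So did 8 of 10 shared NK and ILC1, 6 of 7 T cell restricted, 5 of 8 neutrophil and 4 of 6 erythroid genes. Fewer were higher among cholangiocyte and stellate (4 of 9), endothelial (2 of 8) and basophil and mast cell genes (0 of 7). The share of all genes that averaged higher was not computed. The lists were chosen with earlier results of these data known, so these sums, counts and p-values are descriptions. Itgam, Zeb2, Cx3cr1, S1pr5 and Cma1 are on both the circulating NK list and the list of maturation genes above. The part of these cells in Klrb1b, Clec2d and Klrg1 was not tested.

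The remaining sums were B cell markers at 548 to 824 CPM with metformin and 347 to 622 CPM with PBS, macrophage and monocyte markers at 512 to 925.5 CPM with metformin and 449.9 to 649 CPM with PBS, and endothelial markers at 119 to 144 CPM with metformin and 136 to 157 CPM with PBS. Neutrophil, basophil and mast cell, erythroid, and cholangiocyte and stellate cell markers gave 12.9 to 216 CPM per library. Markers with a mean under 1 CPM included Clec4f and Vsig4 of Kupffer cells, Mcpt8, Fcer1a and Ms4a2 of basophils and mast cells, and Ly6g of neutrophils.

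**Figure D5:**
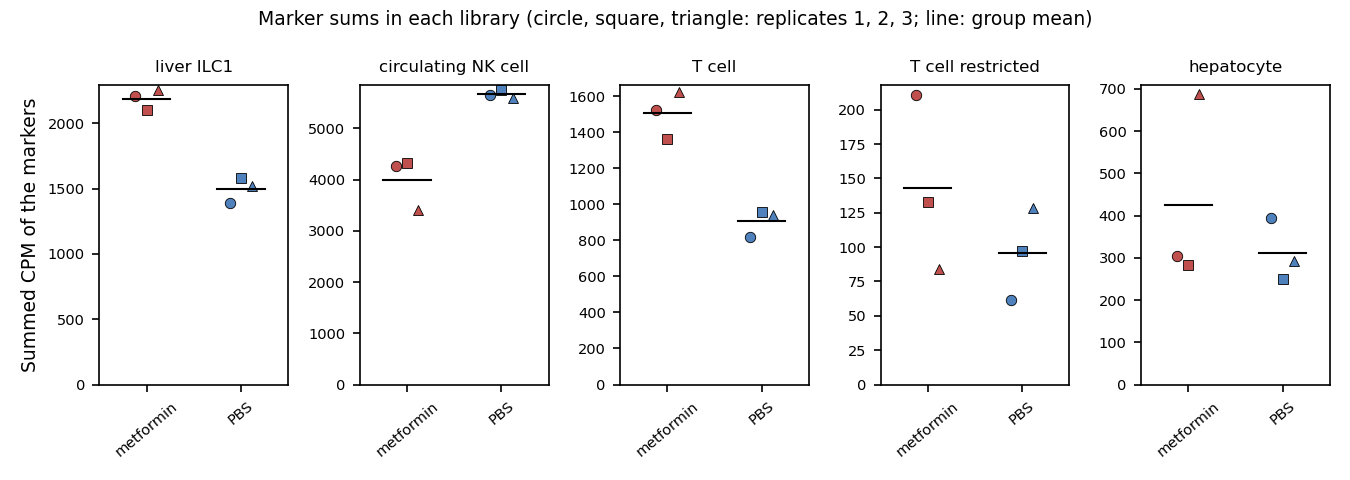
Summed CPM of 5 marker lists in each library, metformin left of PBS, with a line at each group mean; each axis starts at 0. ILC1, circulating NK and T cell sums do not overlap between the groups, whereas the sum of T cell restricted genes does, and metformin 3 alone is high in hepatocyte markers.

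The genes whose pattern over the 6 libraries was most like each member were listed as a description, from 7382 protein-coding genes with a mean of at least 20 CPM, by Pearson's r of log2 CPM. For Klrb1b these were Pttg1 (r = 0.997) and Ccdc6 (0.989), for Klrb1c Ccdc6 (0.997) and Bet1l (0.991), and for Clec2d Pttg1 (0.998) and Coq5 (0.996). For Klrb1a they were Chchd2 (0.991) and Slc25a53 (0.988), and for Klrb1f Cd63 (0.997) and Acaa2 (0.987). Clec2i was closest to E2f4 (0.971) and Kmt2d (0.967), and Klrg1 to Gm7072 (0.980) and Atg4a (0.978). Each r rests on 6 points and was the highest of 7382, and the libraries share the depth, composition and group differences described above.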

How the data were processed

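Total RNA of mouse liver NK cells was extracted with a column kit and sequenced after SMART-seq mRNA preparation, per the labels' protocols. The submitters' processing notes name DRAGEN, GRCm39 and mm10, with no version or role. The authors deposited estimated counts per gene, not normalized, which sum to 22152167 to 30161214 per library, and TPM values scaled to 1000000 per library, which keep no depth. No column was left unassigned.

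The deposited estimated counts, rounded, went into edgeR 4.0.16 in R 4.3.3 over the whole table (TMM, filterByExpr leaving 15527 genes, quasi-likelihood fit with no covariate), with Benjamini-Hochberg adjustment and a threshold of 0.05. The common biological coefficient of variation was 27.3%. The test was also tried on simulated counts, whose outcome is not given here. CPM used TMM-scaled library sizes; SE and 95% intervals were derived from the F statistic of the edgeR fit. Ratios of TPM used a pseudocount of 0.1 TPM. Alternatives used DESeq2 1.42.0 and limma 3.58.1. No pair of replicates was as alike as counting error alone would make them (chi-square over its degrees of freedom 59.4 and 63.6 for the pairs with metformin 3, and 14.9 to 24.6 for the others). Reads carry no molecular identifiers.

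Sequences came from GENCODE M21 (GRCm38) and RefSeq promoters (GRCm38.p6), which 6 of the 7 members matched. The members and lists were chosen with earlier results of these data known. Genes named were the members, the 4 most abundant genes of each program list, up to 3 per marker list, and the 2 genes most like each member; any other gene was named after its values were seen.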

Additional observations from a re-analysis of the deposited data

How the results depend on the processing

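No member passed an adjusted p of 0.05 under any of the settings tried, 16 for each gene and 15 for Clec2d, which the filter of 5 CPM removes. The log2 fold changes kept their sign throughout for Klrb1a (0.22 to 0.51), Klrb1b (0.31 to 0.55), Klrb1c (0.11 to 0.27), Klrb1f (0.092 to 0.33), Clec2d (0.72 to 1.21) and Klrg1 (-0.47 to -0.29). That of Clec2i was -0.083 with limma on log2(TPM + 1), a scale on which the median of all genes was -0.085, against 0.0053 by edgeR on counts. With 1 library left out it stayed between 0.019 and 0.095. The number of genes called over the whole table, 0 by edgeR, was 299 with DESeq2, 1 without a filter, 1 with the length trend removed, 3 with the replicate block, and 0 to 1 with 1 library left out. At an unadjusted p under 0.05 it was 1610, and 1048 without PBS 2. Members whose groups do not overlap numbered 5 by CPM, 5 without metformin 3 and 3 by deposited TPM; these last comparisons were chosen after seeing the data. The cause of these changes was not tested.

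Deviations of same-numbered libraries correlated at 0.171, 0.0757 and 0.172 for numbers 1, 2 and 3. Those of differently numbered libraries correlated at -0.243 to 0.076. The labels do not say that the numbers pair the samples, so the main fit held no block, and a shared effect of the numbers is not excluded. With the replicate block the log2 fold changes were 0.44 for Klrb1b, 0.99 for Clec2d and -0.34 for Klrg1. A further limit is that a block over 3 pairs cannot give an exact p below 0.25.

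The ratio of Klrb1f to Klrb1c, -0.013 in the report, was 0.021 with counts per kb, and -0.066 to 0.040 with 1 library left out. Among marker sums (log2 ratio) dendritic cell markers were 0.0013 and cholangiocyte and stellate markers 0.079 as a mean of log2 CPM, against -0.18 and -0.25. With 1 library left out the ranges were -0.053 to 0.42 for macrophages and monocytes, -1.83 to 0.30 for neutrophils, -0.093 to 0.67 for hepatocytes, -0.28 to 0.52 for erythroid and -0.65 to 0.67 for cholangiocyte and stellate markers. Clec2d had the fewest reads of the 7 genes, 58 to 172 per library. Fits of the signalling and maturation genes with 1 library left out were added after seeing the data, and 0 of them passed.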
